A study of Homo sapiens with 6 samples.

Results

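Kinesins are motor proteins that hydrolyse ATP to walk along microtubules, and some of them pull microtubule ends apart instead of walking. Mitotic kinesins build the spindle, hold and move the chromosomes and assemble the midzone on which a dividing cell separates, and their mRNAs typically build up as cells approach division. The other kinesins mostly carry organelles, vesicles and ciliary cargo in cells of any cycle stage, and in breast cancer lines both kinds are made side by side.

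The kinesins were the protein-coding rows of the deposited gene table whose symbol was KIF with a number, or KIFC1, KIFC2 or KIFC3. This name rule found 42 of 58656 rows. Of these, 12 motors with known work in cell division formed the mitotic group (KIF2C, KIF4A, KIF11, KIF14, KIF15, KIF18A, KIF18B, KIF20A, KIF20B, KIF22, KIF23 and KIFC1), and the other 30 are called the other kinesins here. The label of transport motors would not cover all 30, since KIF2A and KIF24 take microtubule ends apart and KIF7 works in Hedgehog signalling. The name rule left out 14 rows with kinesin-like symbols (7 noncoding RNAs, 5 pseudogenes, and KIFAP3 and KIFBP, which are not motors). It also missed CENPE and STARD9, which are kinesins under other symbols and are given beside the members below.

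RNA sequencing had been done on MDA-MB-231, an established line of triple-negative breast cancer cells. The treated cells received 5 µM mitocurcumin, a curcumin derivative directed to mitochondria, for 9 hours, and the control cells received the DMSO vehicle for 9 hours. No genetic change was named in either group, and each group had 3 libraries with totals between 23146822 and 29104681 counts. Replicates are labelled biological, but separate cultures are not mentioned, so p-values measure the spread between these libraries, which may be technical. Of 6 genes listed as present in this line, 5 were abundant (VIM at 2163 ± 22.3, CD44 at 2095 ± 64.1, CAV1 at 943 ± 41.9, AXL at 679 ± 45.4 and EGFR at 565 ± 27.8 CPM in the controls, SD, n = 3), whereas SPARC was at 0.701 ± 0.218 CPM. ESR1 and PGR, the hormone receptors this line lacks, were at 0.230 ± 0.134 and 0.286 ± 0.0680 CPM. Of the other 3 genes listed as low or absent, CDH1 was at 1.68 ± 0.509 CPM, but GATA3 at 13.7 ± 0.812 and ERBB2 at 41.6 ± 6.17 CPM were plainly present, and both were called lower after treatment (9.25 ± 0.578 and 32.6 ± 2.67 CPM). CPM are each gene's counts relative to the library total, scaled between libraries by the TMM method. The summed CPM of 9 marker genes of other cells, with CD3E, CDH5 and ALB each under 1 CPM, was 411 to 461 in the controls and 383 to 403 after mitocurcumin. Most of that sum came from the epithelial genes KRT8 (233 ± 8.56 to 210 ± 10.2 CPM, called lower), KRT18 (165 ± 15.1 to 157 ± 8.23) and EPCAM (22.3 ± 1.77 to 20.1 ± 1.06). PECAM1, an endothelial and leukocyte adhesion gene, went from 12.9 ± 1.83 to 6.42 ± 0.358 CPM, and the part of such markers in the results below was not tested.

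All 12 mitotic kinesins were lower after mitocurcumin than in the vehicle controls, and none was higher. Their log2 fold changes (mitocurcumin minus control) ran from -0.97 for KIF20A to -0.30 for KIF4A, with a median of -0.48. Calls rest on edgeR's quasi-likelihood test over all 16481 genes tested, with an adjusted p below 0.05. In that test 17.8% of all genes were called lower and 14.7% higher, and the median log2 fold change of all genes was -0.01. For each of the 12 motors the highest treated library lay below the lowest control library, which held for 23.7% of all tested genes. In bulk RNA, fewer cells near division and less kinesin mRNA per cell cannot be told apart. The 22 other kinesins that could be tested went both ways: 3 were called higher, 4 lower and 15 neither, and 11 fold changes were negative and 11 positive, with a median of -0.01. Their shares of 13.6% higher and 18.2% lower were near those of all genes. Over both groups 3 of 34 kinesins were called higher and 16 lower, beside 32.5% of all genes called in either direction. The groups of libraries did not overlap for 15 lower and 6 higher kinesins, beside 44.9% of all genes in either direction.

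Added over the 12 mitotic motors, the controls held 2011, 2153 and 2192 CPM in replicates 1, 2 and 3, and the mitocurcumin libraries held 1423, 1499 and 1432 CPM. Every treated library was below every control library, and the mean went from 2119 ± 95.7 to 1451 ± 42.0 CPM (SD, n = 3), which is 31.5% lower. KIF20B made 21.8% of that loss, KIF11 17.8% and KIF20A 12.1%, so these 3 motors held 51.7% of it. Added over the other kinesins, the values were 1774, 1884 and 1945 CPM in the controls and 1784, 1745 and 1751 CPM after treatment. These ranges overlapped, because control replicate 1 lay below mitocurcumin replicate 1. The mean went from 1867 ± 86.5 to 1760 ± 21.1 CPM (SD, n = 3), which is 5.77% lower. KIF5B alone went from 724 to 608 CPM, a larger fall than that of the whole sum. The libraries did not stand in the same order for every motor: control replicate 1 was the lowest control for 7 of the 12 mitotic and 14 of the 22 other kinesins, and the highest for 5 and 7. It was thus the lowest or highest control for every mitotic motor. Without control replicate 1, 6088 of all tested genes were called, against 5363 with all libraries.

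**Figure D1:**
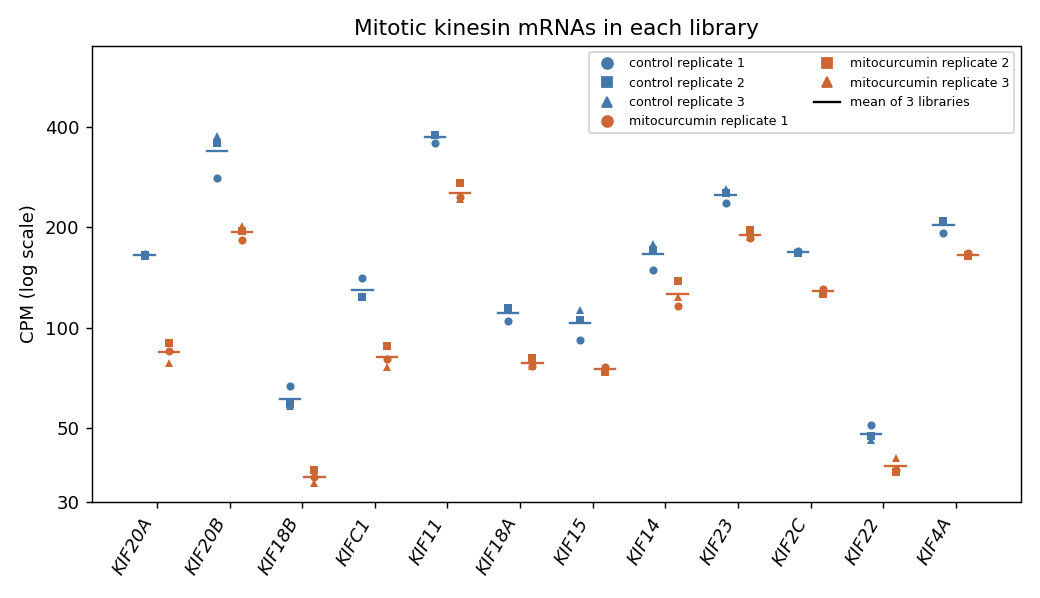
Normalised read count (CPM) of each of the 12 mitotic kinesins in the 3 control and 3 mitocurcumin libraries, on a log axis. Points are single libraries and short lines are group means. For every gene the treated points lie below the control points, with the widest gap for KIF20A (165 to 84.4 CPM).

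Because the mitotic motors moved together, the sequence upstream of their transcription starts was read from the RefSeq promoter table (GRCh38.p14), which holds 250 bases before to 50 after each start. Of the 42 kinesins 34 had an entry, among them all 12 mitotic ones and 16 of the 22 other kinesins tested. The 2 letter patterns of interest were the cell cycle genes homology region (CHR, searched as TTTGAA or TTCGAA), which the LIN54 subunit of the MuvB complex binds, and CCAAT, the box bound by NF-Y. The 100 bases before the start are shown for 6 mitotic motors, and for KIF13A as a motor that was higher. Each is written 5′ to 3′ on the strand of the gene, and capitals mark CCAAT, CHR or their reverse complements. KIF20A, which fell most, and KIF4A, which fell least, open the set. KIF11, KIF18A, KIF23 and KIF22 show how the spacing of both patterns varies.
KIF20A (chr5:138179012-138179111, + strand): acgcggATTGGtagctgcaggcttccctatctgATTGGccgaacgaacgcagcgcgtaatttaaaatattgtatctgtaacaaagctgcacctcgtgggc
KIF4A (chrX:70290004-70290103, + strand): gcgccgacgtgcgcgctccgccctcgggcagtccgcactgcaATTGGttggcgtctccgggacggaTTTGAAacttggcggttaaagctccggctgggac
KIF11 (chr10:92593030-92593129, + strand): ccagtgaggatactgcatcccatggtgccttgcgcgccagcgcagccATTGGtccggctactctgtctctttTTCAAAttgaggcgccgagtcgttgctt
KIF18A (chr11:28108157-28108256, - strand): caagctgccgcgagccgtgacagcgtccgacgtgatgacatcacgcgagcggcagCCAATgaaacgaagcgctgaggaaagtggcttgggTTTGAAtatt
KIF23 (chr15:69414249-69414348, + strand): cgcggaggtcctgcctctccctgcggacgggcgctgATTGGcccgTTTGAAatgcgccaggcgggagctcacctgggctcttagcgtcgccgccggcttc
KIF22 (chr16:29790651-29790750, + strand): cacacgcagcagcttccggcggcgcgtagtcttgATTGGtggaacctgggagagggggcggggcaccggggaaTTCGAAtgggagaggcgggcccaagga
KIF13A (chr6:17987636-17987735, - strand): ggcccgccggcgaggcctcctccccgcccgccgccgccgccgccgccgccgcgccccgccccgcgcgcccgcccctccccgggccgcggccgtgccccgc

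The promoters of the mitotic motors shared these letters often. On either strand of the 300-base window, CHR was found in 10 of 12 mitotic kinesins (all but KIF20A and KIF2C) and in 3 of 16 other tested kinesins (KIF24, KIF4B and KIF5B), beside 12.1% of the promoters of all tested genes and 16.6% of all promoters in the table. CCAAT was found in 10 of 12 mitotic kinesins (all but KIF15 and KIF2C) and in 6 of the 16 others, beside 36.3% of tested genes and 35.7% of all promoters. Both stood together in 9 mitotic and 3 other kinesins, beside 5.03% of tested genes and 6.58% of the promoters of genes called lower. Among those 9 promoters the first bases of the nearest pair were 9 (KIF23) to 122 (KIF20B) bases apart, with a median of 34. KIF20A, the motor with the largest fall, had 2 CCAAT boxes within the stretch shown and no CHR of the searched letters. In the stretch of KIF13A neither pattern occurred. In KIF5B, called lower, the CHR letters lay at -140, upstream of its CCAAT box.

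Other patterns were rare in these windows. An E2F site (searched as TTTCCCGC, TTTCGCGC, TTTGCCGC or TTTGGCGC) was found in 1 of 12 mitotic kinesins (KIF15) and 1 of 16 others (KIF25), beside 5.11% of tested genes. TATAAA, the TATA box, was in none of the 12 and in 1 of the 16 (KIF4B), beside 6.73% of tested genes. The median G and C content was 62.2% in the mitotic, 68.8% in the other tested kinesins and 64.3% in all tested genes. A match is a description of letters, and no binding was measured in these samples.

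**Figure D2:**
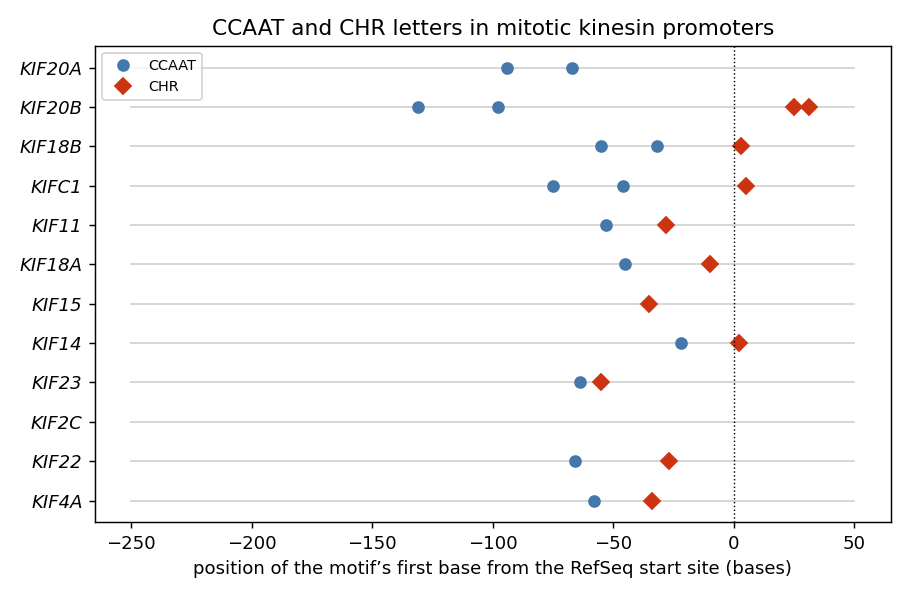
Positions of CHR and CCAAT matches in the promoter windows of the 12 mitotic kinesins, in bases from the RefSeq start. Each row is a gene, ordered from the largest fall (KIF20A) down, and each mark is the first base of a match on either strand. CHR matches lie from -55 (KIF23) to 31 (KIF20B), downstream of the CCAAT boxes, and KIF2C has neither.

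The motors of the spindle midzone and of cytokinesis included the largest falls. KIF20A (Entrez 10112, chr5:138179112-138187723), a kinesin-6 that moves the chromosomal passenger complex from the chromosomes to the midzone at anaphase, had 167, 166 and 164 CPM in control replicates 1, 2 and 3. It had 84.9, 90.0 and 78.3 CPM in the mitocurcumin libraries, all far below the controls. Its log2 fold change was -0.97 ± 0.06 (SE; edgeR adjusted p = 3.12e-09), or 49.0% less mRNA, and the spread among controls was small (165 ± 1.53 CPM, SD). KIF20B (9585, chr10:89701590-89774934), a kinesin-6 of the midbody needed for the completion of cytokinesis, had 282, 357 and 377 CPM in the controls and 184, 194 and 202 CPM after treatment. Its controls spread widely, with replicate 1 the lowest, but no treated library reached them, and the log2 fold change was -0.81 ± 0.09 (edgeR adjusted p = 5.69e-06).

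KIF23 (9493, chr15:69414349-69448427), the third kinesin-6 and the motor subunit of centralspindlin, which bundles midzone microtubules and recruits the activator of RhoA, moved less. Its controls were at 236, 254 and 261 CPM and its treated libraries at 186, 197 and 188 CPM, again without overlap (log2 fold change -0.40 ± 0.05, edgeR adjusted p = 3.01e-05). KIF14 (9928, chr1:200551497-200620751), a kinesin-3 that recruits citron kinase to the midbody, had 149, 172 and 179 CPM in the controls and 116, 139 and 123 CPM after treatment. The gap between its groups was narrow, from 139 to 149 CPM, and the log2 fold change was -0.40 ± 0.07 (edgeR adjusted p = 0.000591). KIF4A (24137, chrX:70290104-70420886), a chromokinesin that with PRC1 limits the growth of midzone microtubules, went from 193, 209 and 209.5 to 167, 166 and 164 CPM. It had the smallest fall of the 12, 18.8% (-0.30 ± 0.05, edgeR adjusted p = 0.000364). KIF4B, a near-identical intronless copy of KIF4A, had 46 counts in all controls and 29 in all treated libraries, and reads may be split between both copies, so its value is uncertain.

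The motors that set up the bipolar spindle were all lower too. KIF11 (3832, chr10:92593130-92655395), the kinesin-5 that slides antiparallel microtubules and pushes the poles apart, had 359, 379 and 379 CPM in the controls and 246, 271 and 243 CPM after treatment. The groups lay far apart, with a log2 fold change of -0.56 ± 0.06 (edgeR adjusted p = 1.17e-06). KIF15 (56992, chr3:44761794-44853256), a kinesin-12 that can maintain the spindle when KIF11 is inhibited, had 91.6, 105 and 113 CPM in the controls and 76.3, 73.6 and 75.9 CPM after treatment. Its treated libraries were close to each other and below all controls (-0.46 ± 0.07, edgeR adjusted p = 0.000107). KIFC1 (3833, chr6:33391823-33409896), the minus-end-directed kinesin-14 that focuses the poles and clusters extra centrosomes, had 141, 123 and 124 CPM against 80.8, 88.0 and 76.3 CPM. Control replicate 1 was the highest here, in contrast to KIF20B and KIF15, and the fall was 36.9% (-0.66 ± 0.07, edgeR adjusted p = 1.4e-06).

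Motors that act on chromosomes and on microtubule plus ends completed the group. KIF18B (146909, chr17:44924711-44947773), a kinesin-8 that shortens astral microtubules, had 66.7, 59.0 and 58.1 CPM in the controls and 35.8, 37.4 and 34.2 CPM after treatment, a fall of 41.6% (-0.78 ± 0.08, edgeR adjusted p = 1.03e-06). KIF18A (81930, chr11:28020619-28108156), the kinesin-8 that damps chromosome oscillations at metaphase, had 105, 114 and 113 CPM against 76.6, 81.2 and 77.0 CPM (-0.50 ± 0.06, edgeR adjusted p = 6.89e-06). Neither kinesin-8 showed any overlap between groups. KIF2C (11004, chr1:44739837-44767767), a kinesin-13 that removes tubulin at kinetochores and so frees wrongly attached microtubules, had 170.0, 167 and 168 CPM in the controls and 131, 126 and 129 CPM after treatment. Its replicates were among the tightest of the group, and the fall was 23.6% (-0.39 ± 0.05, edgeR adjusted p = 2.18e-05). KIF22 (3835, chr16:29790751-29805385) is the chromokinesin that pushes chromosome arms away from the poles. Its 3 controls had 51.0, 47.4 and 46.1 CPM and its treated libraries 37.6, 37.0 and 40.7 CPM (-0.33 ± 0.08, edgeR adjusted p = 0.00366), with no overlap.

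CENPE, the kinesin-7 that carries chromosomes to the spindle equator and lies outside the name rule, had 291, 393 and 398 CPM in the controls and 192, 235 and 223 CPM after treatment. All 3 treated libraries were below all controls (log2 fold change -0.74 ± 0.12, edgeR adjusted p = 0.00163). STARD9, a large kinesin-3 linked to the material around centrosomes, had 30.6, 28.5 and 28.8 CPM against 31.5, 34.0 and 29.7 CPM. Its groups overlapped and it was not called (0.12 ± 0.09, edgeR adjusted p = 0.346).

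**Figure D3:**
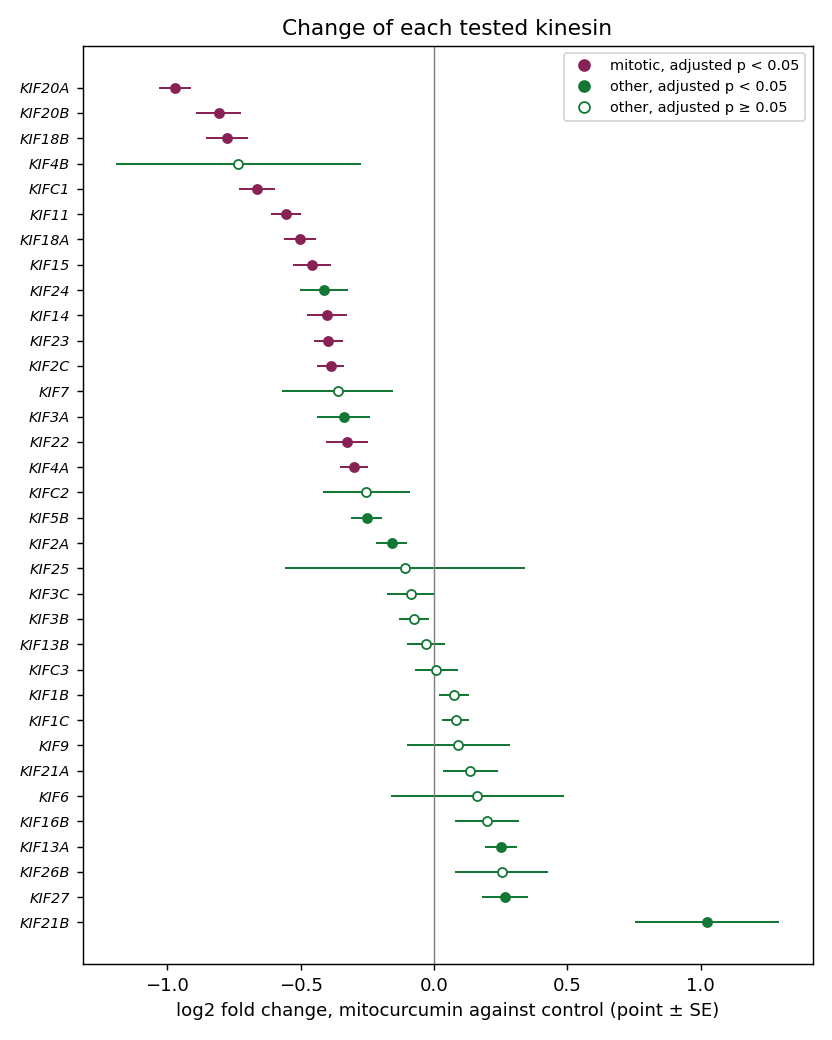
Log2 fold change (mitocurcumin minus control) of the 34 kinesins tested, with the SE as bars. Mitotic and other kinesins are marked apart and filled points passed an adjusted p under 0.05. The mitotic motors all lie left of 0, from -0.97 to -0.30, and the other kinesins lie on both sides, from -0.73 (KIF4B, not called) to 1.02 (KIF21B).

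Of the other kinesins, 4 were called lower. KIF24 (347240, chr9:34252380-34329268), a kinesin-13 at centrioles that restrains the growth of cilia, had 34.9, 35.6 and 37.2 CPM in the controls and 26.5, 29.8 and 24.7 CPM after treatment. It did not overlap between groups, and its log2 fold change of -0.41 ± 0.09 (edgeR adjusted p = 0.00198) lay within the range of the mitotic motors. KIF5B (3799, chr10:32009015-32056425), the widely expressed heavy chain of conventional kinesin, had 671, 729 and 773 CPM against 609, 608 and 606 CPM. All treated libraries were below the controls, by 16.1% in the means (-0.25 ± 0.06, edgeR adjusted p = 0.00267).

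The other falls were less firm. KIF3A (11127, chr5:132692631-132737546), a motor subunit of the heterotrimeric kinesin-2 of cilia, had 40.4, 54.4 and 53.2 CPM in the controls and 40.7, 38.5 and 37.9 CPM after treatment. Control replicate 1 lay among the treated libraries, so the groups overlapped (-0.34 ± 0.10, edgeR adjusted p = 0.015). It no longer passed with control replicate 2 left out (-0.26, edgeR adjusted p = 0.0841), nor without control replicate 3 (-0.27, 0.0934), mitocurcumin replicate 2 (-0.32, 0.0735) or mitocurcumin replicate 3 (-0.32, 0.0701). KIF2A (3796, chr5:62306206-62391025), a kinesin-13 that trims microtubules at spindle poles and in neurons, had 169, 184 and 193 CPM in the controls and 169, 161 and 159 CPM after treatment. Its groups touched, with 169.495 CPM in control replicate 1 and 169.475 CPM in mitocurcumin replicate 1 (-0.16 ± 0.06, edgeR adjusted p = 0.0483). This call was lost in 12 of 17 alternative analyses, among them the removal of any library but control replicate 1, where edgeR's adjusted p ran from 0.0831 to 0.251.

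Those 3 higher motors were KIF13A, KIF27 and KIF21B. KIF13A (63971, chr6:17759126-17987635), a kinesin-3 that carries recycling endosomes and melanosome cargo, had 113, 123 and 132 CPM in the controls and 147, 149 and 143 CPM after treatment. All treated libraries were above the controls, by 19.1% in the means (0.25 ± 0.06, edgeR adjusted p = 0.00413). KIF27 (55582, chr9:83834099-83921432), a kinesin-4 and a relative of KIF7 with a role in motile cilia, had 36.8, 44.8 and 46.8 CPM against 52.9, 50.3 and 51.3 CPM. It did not overlap between groups (0.27 ± 0.09, edgeR adjusted p = 0.0256), yet the call was lost without control replicate 1 (0.17, 0.0596) or mitocurcumin replicate 1 (0.26, 0.0798), 2 (0.30, 0.0524) or 3 (0.27, 0.0774). KIF21B (23046, chr1:200969390-201023714), a kinesin-4 that limits microtubule growth in neurons and lymphocytes, had 2.03, 1.31 and 1.24 CPM in the controls and 2.26, 3.88 and 3.19 CPM after treatment. It was scarce, with 111 counts in all controls and 239 in all treated libraries, and the log2 fold change was 1.02 ± 0.27 (edgeR adjusted p = 0.00775). Without mitocurcumin replicate 2 it was 0.85 with an adjusted p of 0.0593.

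Among the kinesins of at least 10 CPM that were not called, 8 remained. The kinesin-2 motors beside KIF3A were KIF3B, its partner in the heterotrimer, with 166, 158 and 159 CPM against 163, 148 and 147 CPM (-0.07 ± 0.06, edgeR adjusted p = 0.354), and KIF3C, with 33.7, 31.9 and 29.4 against 29.5, 28.0 and 31.8 CPM (-0.09 ± 0.09, 0.502). For both motors the groups overlapped. KIF13B, the paralog of KIF13A, had 43.4, 44.4 and 43.1 CPM against 44.1, 42.2 and 41.9 CPM (-0.03 ± 0.07, edgeR adjusted p = 0.792). Thus the paralogs KIF13A and KIF13B gave log2 fold changes of 0.25 and -0.03, and the difference between them was not tested.

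The kinesin-3 motors KIF1B, which moves mitochondria and vesicle precursors, and KIF1C, which moves integrin-bearing vesicles, were abundant and close between groups. KIF1B had 143, 154 and 157 CPM in the controls and 163, 158 and 157 CPM after treatment (0.07 ± 0.06, edgeR adjusted p = 0.331), and KIF1C had 186, 190 and 189 against 195, 199 and 205 CPM (0.08 ± 0.05, 0.244). KIF16B, a kinesin-3 of early endosomes, had 12.7, 16.8 and 16.9 against 18.3, 18.0 and 17.0 CPM (0.20 ± 0.12, 0.227). All 3 had treated libraries above every control, as 21.2% of all tested genes had, without passing the test. KIF21A, which halts microtubule growth at the cell cortex, had 29.4, 37.0 and 38.0 against 38.6, 34.3 and 41.6 CPM (0.14 ± 0.10, edgeR adjusted p = 0.351). KIFC3, a minus-end-directed motor of the Golgi and cell junctions, had 66.3, 54.9 and 54.3 against 61.5, 55.5 and 59.5 CPM (0.01 ± 0.08, 0.951), and both overlapped between groups.

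**Figure D4:**
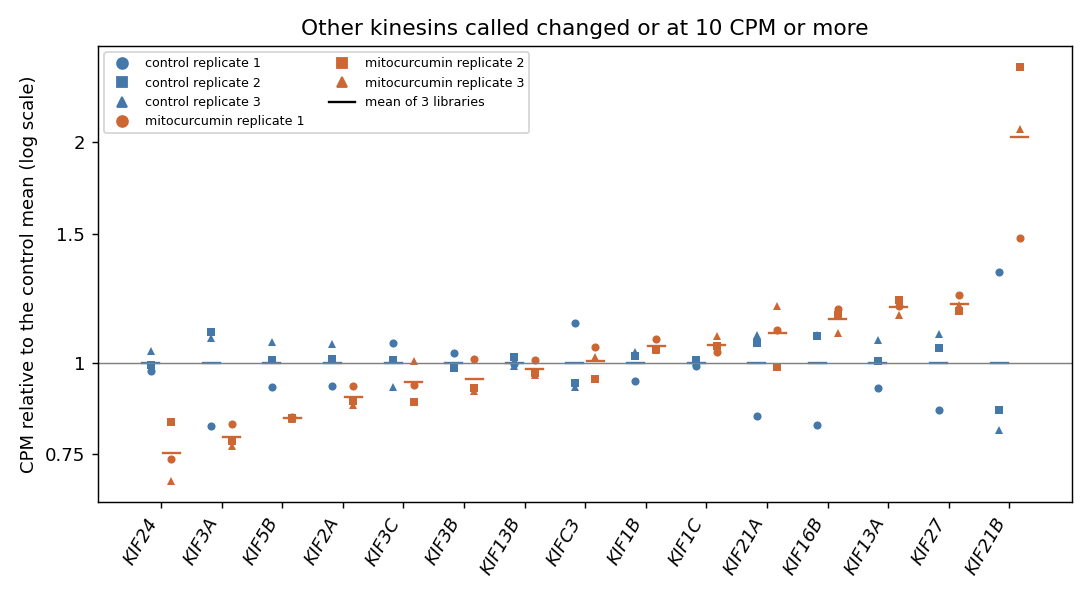
Level of each other kinesin of at least 10 CPM or called, in every library, relative to its mean in the 3 controls (ratio of CPM, log axis). Points are single libraries and short lines are group means. KIF24 and KIF5B lie below the controls in all 3 treated libraries, KIF13A and KIF27 above, and KIF3A overlaps because control replicate 1 is low.

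The remaining kinesins were scarce. KIF4B, KIF7, KIFC2, KIF25, KIF9, KIF6 and KIF26B were tested at under 10 CPM and not called, with log2 fold changes from -0.73 (KIF4B) to 0.25 (KIF26B) and SEs from 0.16 (KIFC2) to 0.46 (KIF4B). KIF4B and KIF25, the latter with 37 counts in all controls and 36 in all treated libraries, were the least precise. KIF12, KIF17, KIF19, KIF1A, KIF26A, KIF2B, KIF5A and KIF5C, the last 2 being the neuronal heavy chains of conventional kinesin, had too few counts to be tested, at most 28 in either group. KIF17, a dendritic and ciliary motor, had 3 counts in the controls and 18 after treatment. KIF19 had 0 counts in all libraries, which allows a level of up to 0.02 CPM over the 6 libraries, from counting error alone.

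The kinesins are also classed into structural families by their motor domains, here with 1 to 6 tested members each. Of all tested genes, 17.8% were called lower and 14.7% higher. All 3 kinesin-6 motors, both tested kinesin-8 motors and all 3 tested kinesin-13 motors were called lower, the last being KIF2A, KIF2C and KIF24. The call of KIF2A was lost in 12 of 17 alternative analyses. The only tested members of kinesin-1 (KIF5B), kinesin-5, kinesin-10 and kinesin-12 were lower as well. In kinesin-3, KIF14 was lower and KIF13A higher among 6 tested, and in kinesin-4 KIF4A was lower while KIF21B and KIF27 were higher among 6. Of 4 tested kinesin-14 motors KIFC1 alone was called, and neither KIF6 nor KIF9 of kinesin-9 was. In kinesin-2, KIF3A alone was called among 3 tested, and KIF26B, the only tested kinesin-11, was not called.

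Levels of different motors were compared per kilobase of exon, in CPM per kb. KIF5B was the most abundant kinesin, with 123 ± 8.73 in the controls (SD, n = 3), followed by KIF11 at 76.6 ± 2.42 and KIF23 at 66.5 ± 3.35. Next came KIF20B at 52.7 ± 7.80, KIF2C at 52.1, KIF20A at 51.7 ± 0.479, KIF2A at 50.2, KIFC1 at 47.8 and KIF4A at 46.9, and none of these neighbours differed beyond their spread. After mitocurcumin KIF5B (103), KIF11 (52.2) and KIF23 (50.5) still led, but KIF20A stood ninth at 26.4 and KIF20B eighth at 30.1, while KIF2A moved up to the fourth place at 45.0. The median level in the controls was 47.3 over the mitotic motors (14.2 to 76.6) and 5.45 over the other kinesins tested (0.124 to 123).

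**Figure D5:**
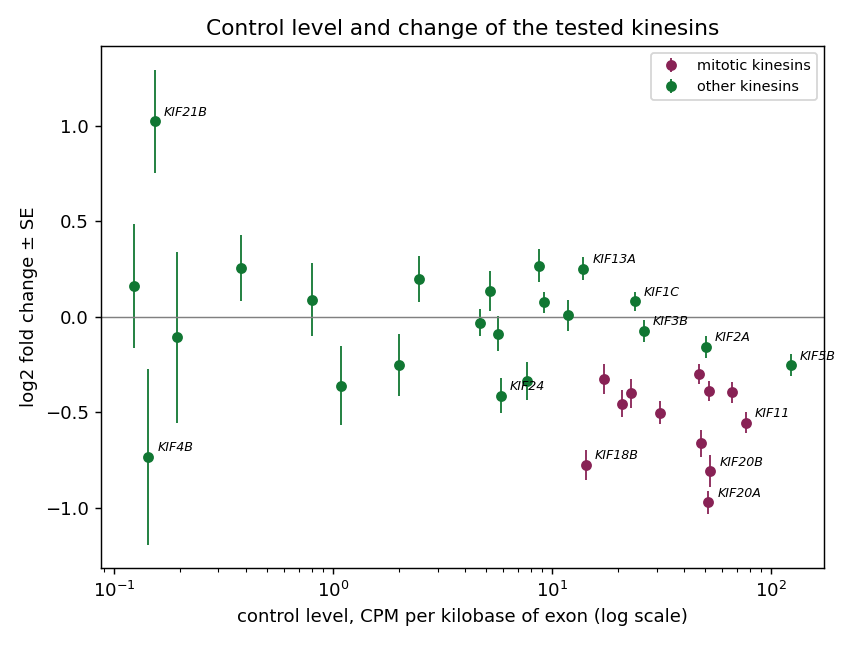
Log2 fold change (mitocurcumin minus control, bars are the SE) against the mean control level per kilobase of exon (CPM per kb, log axis) for the tested kinesins. Each point is a gene. The mitotic motors cluster at high levels and below 0, and KIF5B, the most abundant kinesin, lies at -0.25.

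The mRNAs of proteins that work with the mitotic motors were mostly lower as well. The 24 partners (passenger complex, midzone bundlers, spindle-pole and plus-end proteins) were listed with earlier results of these data known. Of them, 21 were called lower (87.5%, beside 17.8% of all tested genes) and none higher, with a median log2 fold change of -0.40. ASPM, which focuses spindle poles, went from 453 ± 51.4 to 249 ± 23.3 CPM (-0.87 ± 0.08, edgeR adjusted p = 1.2e-06), and PLK1, the kinase that acts with KIF20A at the midzone, went from 92.1 ± 6.26 to 52.5 ± 2.96 CPM (-0.81 ± 0.07). CLASP1, CLASP2 and MAPRE3, which bind microtubule plus ends, were not called. The listed regulators of late cell cycle genes were mixed, and not all of them are transcription factors. Of 26 tested, 14 were lower (53.8%) and 4 higher (15.4%), with a median of -0.24, beside 17.8% and 14.7% of all tested genes. FOXM1 went from 179 ± 7.40 to 129 ± 10.9 CPM (-0.47 ± 0.06) and MYBL2 from 101 ± 6.29 to 78.6 ± 3.97 (-0.36 ± 0.06), whereas LIN54 had 85.9 ± 4.75 and 86.1 ± 5.01 CPM and was not called. E2F1 was lower (-0.65 ± 0.10), and E2F2 (-1.29 ± 0.17) and the repressor E2F8 (-1.07 ± 0.08) had the largest falls. E2F7, also a repressor, rose from 214 ± 8.49 to 308 ± 12.2 CPM (0.53 ± 0.05), and E2F5 by 0.37 ± 0.10, which did not pass without control replicate 3 (0.30, edgeR adjusted p = 0.0509). CDKN1A, the p21 inhibitor of cyclin-dependent kinases and 1 of the 4 higher regulators, had a log2 fold change of 0.34 ± 0.09 (edgeR adjusted p = 0.0069).

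The machinery around the other kinesins moved less, in both directions. Of 23 tested light chains and cargo adaptors 6 were higher (26.1%) and 2 lower (8.70%), with a median of 0.03, beside 14.7% and 17.8% of all tested genes. The kinesin-1 light chain KLC2 fell from 58.4 ± 7.37 to 41.5 ± 2.89 CPM (-0.50 ± 0.09) and KIFBP, which binds and blocks several kinesin motor domains, from 120.3 ± 3.71 to 88.4 ± 3.38 CPM (-0.44 ± 0.06). The scarce light chain KLC3 rose from 0.856 ± 0.256 to 2.04 ± 0.556 CPM (1.26 ± 0.32), a call lost without mitocurcumin replicate 3 (1.05, edgeR adjusted p = 0.0576). SYBU, which links kinesin-1 to vesicles and mitochondria, rose from 2.10 ± 0.0555 to 4.44 ± 0.788 CPM (1.09 ± 0.21).

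Dynein, the motor of opposite direction, had 2 of 32 tested subunits and adaptors higher and 6 lower, with a median of -0.06. The lower share, 18.8%, was near the 17.8% of all tested genes, and the higher share, 6.25%, was below the 14.7% of all tested genes. Its heavy chain DYNC1H1 rose from 1350 ± 29.2 to 1637 ± 64.1 CPM (0.28 ± 0.05) and the dynactin subunit DCTN4 by 0.33 ± 0.06. SPDL1, the dynein adaptor of kinetochores, fell from 169.5 ± 8.16 to 125.7 ± 4.11 CPM (-0.43 ± 0.06), and BICD2, an adaptor for vesicles and the nucleus, fell by 0.34 on the log2 scale. Of 22 genes of intraflagellar transport, the cargo trains of kinesin-2 in cilia, 5 were higher (22.7%) and 3 lower (13.6%). Their median was 0.04, and of all tested genes 14.7% were higher and 17.8% lower. IFT20 (0.50 ± 0.13) and IFT46 (0.39 ± 0.10) rose most, and IFT25 (-0.51 ± 0.09) and IFT70B (-0.51 ± 0.16) fell most, though IFT70B lost its call without control replicate 3 or any one mitocurcumin replicate, and its reads may be shared with its close copy IFT70A.

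Several kinesin genes overlap a gene on the opposite strand. The libraries were stranded per the labels' protocols, but whether the counting used strand was not given in the sources used here. KIF20A shares 74 bases with CDC23, KIF24 shares 144 with UBAP1, KIF23 shares 681 with KIF23-AS1, and KIF2A shares 3772 with DIMT1. KIF9 shares 16119 with KIF9-AS1, and over the 6 libraries KIF9 had a mean of 3.63 CPM and the antisense RNA 1.53 CPM, so the value of KIF9 is uncertain. UBAP1 had a mean of 82.1 CPM beside 31.4 for KIF24. TICRR, which shares 47 bases with KIF7, had 40.0 CPM beside 4.40 for KIF7. DIMT1 had 44.6 CPM beside 173 for KIF2A. The part of these overlaps in the values of KIF24, KIF7 and KIF2A was not tested.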

How the data were processed

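RNA sequencing of 6 libraries (3 control, 3 mitocurcumin) was analysed. The authors' deposited raw table holds estimated counts, of which 20.4% to 21.7% were whole (tolerance 1e-06). The authors' deposited log2 values equal, where above 0, log2 of the raw value over 1 factor per library, and values that this would put below 0 are listed at 0. The submitters' processing notes name GRCh38, and the aligner and counting tool are not given in the sources used here.

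After rounding, estimated counts were tested with edgeR 4.0.16 in R 4.3.3 (quasi-likelihood F-test, robust, TMM scaling, Benjamini-Hochberg adjustment over 16481 genes). The filter was filterByExpr with a count of 10 and a total of 15 as minima. The group was the only term, and the SE is the log2 fold change over the square root of F. The biological coefficient of variation was 8.43%. CPM used TMM-scaled totals of the genes kept. Exon length was the union of protein-coding exons in GENCODE. Promoters were searched on both strands, and an NRF1 motif tried at first is not reported. Alternatives were other scalings and filters, DESeq2 1.42.0, limma 3.58.1 (voom, and on the deposited log2 values), a replicate term, a stricter threshold and libraries left out.

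The members and gene lists were chosen with earlier results of these data known. Named were all mitotic kinesins, every other kinesin called or reaching 10 CPM, set regulators, and per partner list up to 2 called genes of each direction (mean CPM of 1 or more). A few genes of the marker and regulator lists are not reported.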

Additional observations from a re-analysis of the deposited data

How the results depend on the processing

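All 12 mitotic kinesins were called lower, and 0 higher, in every alternative run, including an adjusted p under 0.01 and the removal of each library. With 1 library left out, 2 to 4 other kinesins were called lower and 1 to 3 higher, and all genes called ran from 4100 to 6088 (5363 with all libraries). At an adjusted p under 0.01, 2 other kinesins were lower and 2 higher. Same-numbered libraries had deviation correlations of 0.10, 0.02 and -0.01, and pairs of unlike number ran from -0.11 to 0.09. With 3 libraries per group, these values cannot show whether the numbers mark pairs. With a replicate block 12 mitotic kinesins were lower, 4 other kinesins lower and 3 higher, and 5806 genes were called. Some log2 fold changes of genes never called changed sign with libraries left out, including the removal of both control replicate 1 and mitocurcumin replicate 2, which was chosen after seeing the data. They ran from -0.453 to 0.0101 for KIF25, -0.1396 to 0.0125 for KIF3C, -0.0615 to 0.3662 for KIF6, -0.0020 to 0.2723 for KIF9, -0.0295 to 0.1579 for KIFC3 and -0.038 to 0.0595 for LIN54. LIN54 was at -0.0018 with limma on the deposited log2 values. The cause was not tested. The deposited heading of mitocurcumin replicate 2 carries a sample number out of sequence with the others. What that number marks is not given in the sources used here. Depth limits the kinesins under 10 CPM.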
